A study of Mus musculus with 48 samples.

Results

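The glutathione peroxidases, the peroxiredoxins and Txnip are followed here through α and β cells sorted from mouse islets, with and without ablation of the β cells. The 10 genes are Gpx1, Gpx2, Gpx3, Gpx4, Gpx7, Gpx8, Prdx1, Prdx2, Prdx4 and Txnip. They were found by symbol, each once, among the 42713 genes of the count tables. Of the 10, 9 passed the filter on low counts, and Gpx8 did not. The mice were males aged 6 to 8 weeks with the reporters ProGcg-Venus, RIP-Cherry and PER2::Luc and the ablation transgenes Insulin-rtTA and TET-DTA. Venus under a proglucagon promoter marks α cells, and Cherry under the rat insulin promoter marks β cells. In β cells the insulin promoter drives rtTA, which together with doxycycline switches on the diphtheria toxin A chain. Treated mice (DOX) drank 2% sucrose water holding 300 mg of doxycycline, and control mice (CTR) had the same sweetened water with no drug. Both arms carried every transgene, so doxycycline itself and the loss of β cells cannot be told apart. Feeding was at night only from 10 days before the experiments, in a cycle of 12 h light and 12 h darkness, and for part of the animals light and feeding had been inverted for 2 weeks beforehand. Islets were taken every 4 h, at zeitgeber times (ZT) 0 to 20, and their cells were separated by fluorescence. Each of the 24 combinations of cell type, treatment and time has 2 libraries, so each cell type and treatment has 12. The labels do not say whether the 2 libraries come from separate mice or from pools, so p-values measure the spread between these libraries.

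Glutathione peroxidases typically reduce hydrogen peroxide and lipid peroxides with electrons from glutathione, though not every member does so well. Peroxiredoxins reduce peroxides through a cysteine, which thioredoxin restores in the cytosolic forms, and Txnip binds thioredoxin and restrains sugar uptake. Islet β cells are known for low levels of catalase and of glutathione peroxidase, and Txnip is known there as a gene that glucose induces. Gpx1 is the abundant intracellular enzyme, Gpx2 the form first known from gut epithelium, and Gpx3 the secreted plasma form. Gpx4 reduces lipid peroxides in membranes and restrains ferroptosis. Gpx7, Gpx8 and Prdx4 work in the endoplasmic reticulum, where peroxide arises as disulfides form in new proteins. Prdx1 and Prdx2 are cytosolic.

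The codon of the catalytic residue separates the glutathione peroxidases that use selenocysteine from those that use cysteine, and sets both beside the peroxiredoxins. The coding stretches around it are printed below because they show which of the genes that moved depend on selenium. The catalytic codon stands in capitals with 21 coding bases on either side, 5′ to 3′, read from GENCODE vM21 transcripts on GRCm38.
Gpx1: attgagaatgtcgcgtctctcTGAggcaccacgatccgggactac
Gpx2: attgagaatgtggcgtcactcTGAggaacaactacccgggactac
Gpx3: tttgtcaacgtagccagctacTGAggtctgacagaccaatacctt
Gpx4: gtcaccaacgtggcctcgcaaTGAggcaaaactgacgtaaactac
Gpx7: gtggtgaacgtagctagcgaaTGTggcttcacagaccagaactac
Gpx8: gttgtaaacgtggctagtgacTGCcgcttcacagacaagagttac
Prdx1: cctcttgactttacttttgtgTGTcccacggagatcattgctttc
Prdx2: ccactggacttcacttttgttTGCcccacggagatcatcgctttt
Prdx4: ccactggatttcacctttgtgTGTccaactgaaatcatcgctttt

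In Gpx1, Gpx2, Gpx3 and Gpx4 the codon is TGA, which the annotation marks as selenocysteine. Gpx7 and Gpx8 have a cysteine codon there, as do the 3 peroxiredoxins. Of the 45 bases shown, Gpx1 and Gpx2 share 39, Gpx7 and Gpx8 share 35, and Gpx3 shares 30 with Gpx7 and 21 with Gpx1. Prdx2 shares 38 with Prdx1 and 38 with Prdx4. On GRCm38 the codon of Gpx3 lies in exon 2 of 5 (chr11:54907256-54907258, plus strand), that of Gpx2 in exon 1 of 2 (chr12:76795256-76795258, minus strand) and that of Prdx4 in exon 3 of 7 (chrX:155332460-155332462, minus strand).

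Total counts ran from 16138312 to 28599963 in the 20 libraries of the earlier sequencing run and from 37395994 to 69948237 in the 28 of the later run. At ZT4 to ZT20 replicate 1 came from the earlier run and replicate 2 from the later, while both ZT0 replicates came from the later run. Gcg, which encodes glucagon, took 24.8 to 39.6% of the counts in α libraries and 0.00453 to 0.0439% in β libraries, and Ins2 took 16.5 to 26.4% in β libraries and at most 0.274% in α libraries. The α libraries also held Ppy and Pyy, hormones of pancreatic polypeptide cells, at means of 20899 and 9710 CPM (counts relative to the library total after scaling between libraries) in control mice. In doxycycline mice these α-cell means were 28818 and 13642 CPM. In β libraries the 15 macrophage and dendritic cell markers summed to 56.4 to 410 CPM in control mice and to 139 to 1723 CPM after doxycycline. All 15 of 15 rose, where 23.8% of all genes did. These libraries come from sorted populations, in which fewer cells of a type and less RNA per cell cannot be told apart.

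Levels of different genes are compared in CPM per kb of the gene length given in the files, and the order depends on these lengths. For Gpx1 (1441 bases) and Gpx2 (3222 bases) that length is the whole span of the gene, though each has 2 exons. Before division by length, control β cells held means of 118 CPM for Prdx1, 106 for Gpx3 and 93.5 for Prdx2. In control α cells Gpx3 led at 2364 ± 422 (SD, n = 12), far above Txnip at 72.0 ± 7.75. Prdx2 (52.1), Prdx1 (41.2), Gpx1 (35.6), Prdx4 (26.9) and Gpx4 (20.3) followed, each overlapping the next in its range over libraries. Gpx2 (3.23), Gpx7 (1.61) and Gpx8 (0.113) came last, and their ranges did not overlap. In control β cells the order was different. Txnip led at 131 ± 68.1 CPM per kb, and its range overlapped that of Gpx3 at 58.2 ± 13.8. Gpx1 (45.9), Prdx1 (38.6), Prdx2 (30.7) and Gpx4 (24.3) followed, and Prdx4 was only seventh at 7.43. After doxycycline Gpx3 (648 ± 221) and Txnip (521 ± 168) headed the β-cell order with overlapping ranges, and the range of Txnip did not overlap that of Gpx1, the third at 51.9. In α cells of doxycycline mice the order was the same as in control α cells.

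**Figure D1:**
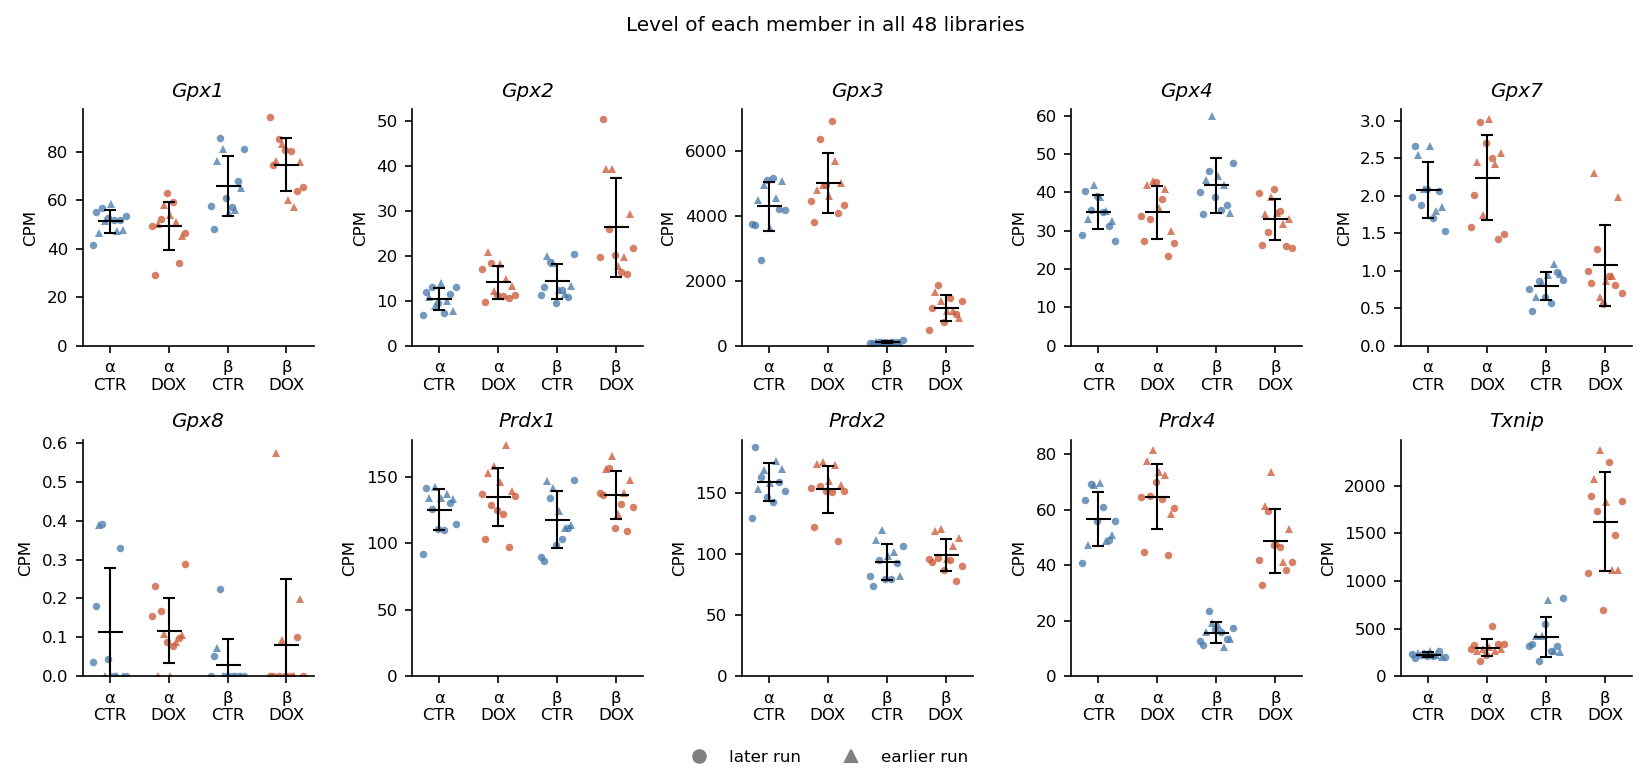
Each panel plots 1 gene's CPM (linear axis from 0) in α and β cells of control (CTR) and doxycycline (DOX) mice, 12 libraries each, with triangles for the earlier run and circles for the later run. Black bars give the mean ± SD. Gpx3 and Prdx4 are lowest in control β cells, and Txnip is high in β cells of doxycycline mice.

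The first comparison asks how α and β cells differ in control mice. Of the 9 genes tested, 8 differed between them (edgeR quasi-likelihood test, adjusted p under 0.05), 4 lower and 4 higher in β cells. Among all genes 71.4% differed, 37.3% lower and 34.2% higher in β cells, so this share is near the background, and the sizes carry more than the count. Log2 fold changes of β over α cells ran from -5.38 for Gpx3 to 0.78 for Txnip. In 4 of the genes (Gpx3, Prdx4, Gpx7 and Prdx2) the 12 β libraries all lay below the 12 α libraries, against 23.1% of all genes with no overlap in either direction. In doxycycline mice 7 of 9 differed, 4 lower and 3 higher in β cells, where 71.2% of all genes did (35.7% lower, 35.6% higher), and 2 of the genes, Gpx3 and Txnip, did not overlap between cell types (20.6% of all genes). The second comparison asks how doxycycline and control libraries differ within each cell type. The sorted β cells of doxycycline mice are those left after ablation. A change within cells and a change in which cells remain therefore cannot be told apart. In β cells 5 of the 9 rose and 1 fell, and among all genes 46.9% changed, 23.8% up and 23.1% down. Gpx3, Txnip and Prdx4 rose by more than 2-fold, as did 8.63% of all genes. In α cells none of the 9 passed by edgeR or DESeq2, among 19 genes in all by edgeR (0.127%, with 0.0804% higher and 0.0469% lower). At an unadjusted p under 0.05, 4 of the 9 would pass there, Txnip, Gpx2, Gpx3 and Prdx4, where 7.86% of all genes would. The effect in β cells differed from that in α cells for 4 of the 9, 3 higher and 1 lower, where 25.5% of all genes did (12.7% higher, 12.8% lower). None of the 9 had an effect that differed between the 2 runs by edgeR or DESeq2, in β cells (0.0461% of all genes by edgeR) or in α cells (0.114%), and at an unadjusted p under 0.05 Prdx4 in β cells alone would pass, where 6.51% of all genes would in β cells and 5.3% in α cells.

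Gpx3, the secreted glutathione peroxidase, was the strongest difference of the group in both comparisons. Its gene (ENSMUSG00000018339.11) lies on GRCm38 chr11:54902453-54910377, plus strand. Control α libraries held 2630 to 5157 CPM (median 4348), and control β libraries 72.2 to 164 CPM (median 110). The groups did not overlap, and the α mean was 40.6 times the β mean. The log2 fold change of β over α cells was -5.38 ± 0.13 (SE), with an adjusted p of 4.05e-19 by edgeR. In β cells of doxycycline mice the lowest library held 470 CPM, the median was 1127 and the highest 1869. All 12 lay above the highest control β library, and the mean of 1174 ± 400 CPM (SD, n = 12) was 11.1 times the control mean of 106 ± 24.9. The rise was 3.47 ± 0.17 on the log2 scale (edgeR adjusted p = 1.78e-11). It was there at every time of day, with ratios of group means between 3.13 and 4.04 on the log2 scale. The earlier run alone gave 3.55 and the later run alone 3.40. In α cells the doxycycline libraries ran from 3815 to 6931 CPM, against 2630 to 5157 in control, and the groups overlapped (0.22 ± 0.10, edgeR adjusted p = 0.628). The difference between the β and the α effect was itself large, 3.24 ± 0.20 (edgeR adjusted p = 3.06e-14). Even so, β cells of doxycycline mice stayed below α cells, at 23.5% of the α mean, where control β cells had been at 2.46%. The log2 difference of β from α cells in doxycycline mice was -2.11 ± 0.15 (edgeR adjusted p = 6.29e-11).

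Since Gpx3 is an α-cell gene, its share in β libraries was set beside that of 6 α-cell markers. Gcg stood in β libraries at 0.0562% of its α level in control mice and at 0.0734% after doxycycline. Irx1, a transcription factor of α cells, stood at 0.0866% in control and at 0.139% after doxycycline. Both were thus far below the 23.5% of Gpx3. Irx2 (1.26%) and the amino acid transporter Slc38a5 (9.04%) were also below it after doxycycline. The secreted proteins Ttr, a carrier of thyroid hormone, and Gc, the vitamin D-binding protein, stood higher, going from 5.85 to 23.8% and from 14.5 to 67.7%. The summed level of the 6 markers in β libraries was 339 to 844 CPM in control mice and 1417 to 3786 CPM after doxycycline, with Ttr as the largest part. No marker of the 6 was at 0 in all libraries.

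**Figure D2:**
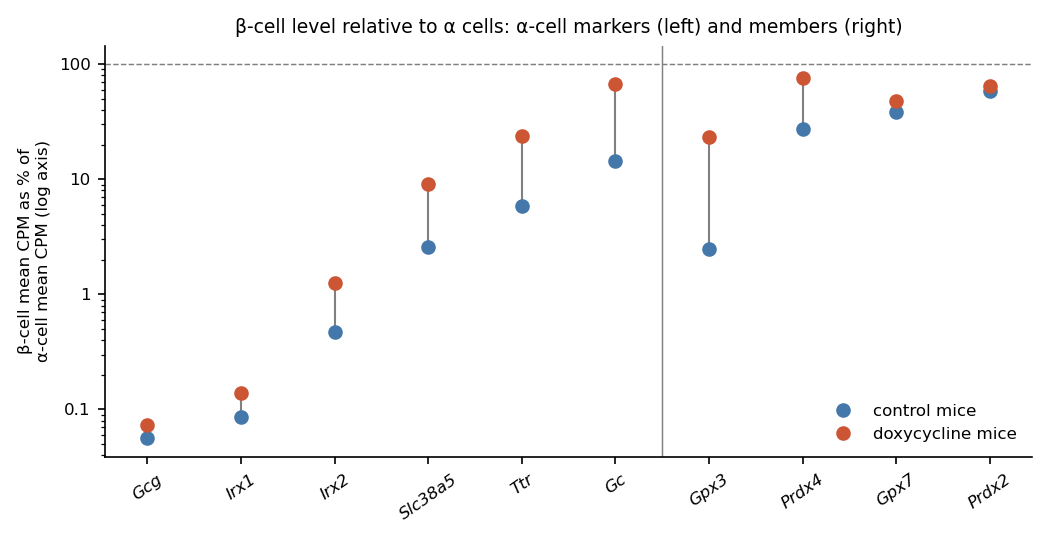
The vertical axis (log scale) gives the mean CPM in β cells as a percentage of the mean CPM in α cells of mice with the same treatment, for 6 α-cell markers and 4 peroxidases. Gcg and Irx1 stay under 0.14% after doxycycline, while Gpx3 moves from 2.46 to 23.5% and Prdx4 from 27.6 to 75.2%.

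Prdx4, the peroxiredoxin of the endoplasmic reticulum, followed the same pattern at a lower level. The gene (ENSMUSG00000025289.15) lies on chrX:155323918-155340754, minus strand. Control α libraries held 40.9 to 69.6 CPM (median 55.8) and control β libraries 10.4 to 23.5 CPM (median 15.8), with no overlap and a log2 fold change of -1.90 ± 0.09 (edgeR adjusted p = 6.66e-14). After doxycycline β libraries held 32.7 to 73.4 CPM (median 46.8). Again all 12 lay above every control β library. Of all genes 1.36% separated the β groups in this way, and of the 10 genes described here Gpx3 and Prdx4 did. The mean rose 3.11-fold, from 15.6 ± 3.71 to 48.6 ± 11.4 CPM, and the fitted change was 1.64 ± 0.09 (edgeR adjusted p = 4.08e-11). At the 6 times the ratio of means lay between 1.47 and 1.74 on the log2 scale. It was 1.88 in the earlier run alone and 1.50 in the later run alone, a difference between runs of -0.36 ± 0.16 (edgeR adjusted p = 0.685). In α cells doxycycline libraries ran from 43.8 to 81.6 CPM, 5 of 12 above the highest control, with a log2 fold change of 0.17 ± 0.08 (edgeR adjusted p = 0.634). The β effect exceeded the α effect by 1.45 ± 0.13 (edgeR adjusted p = 1.63e-10). The gap between cell types was therefore smaller in doxycycline mice, at -0.41 ± 0.07 (edgeR adjusted p = 4.58e-05), and the ranges overlapped.

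Gpx7 and Gpx8, the other enzymes of the endoplasmic reticulum, were scarce. Gpx7 (chr4:108400390-108406961, minus strand) held 1.53 to 2.67 CPM in control α libraries and 0.467 to 1.09 CPM in control β libraries, at most 142 counts in any library. The groups did not overlap, and the log2 fold change of β over α cells was -1.40 ± 0.16 (edgeR adjusted p = 6.28e-08). In doxycycline mice the difference was -1.13 ± 0.20 (edgeR adjusted p = 2.81e-05). The doxycycline effect in β cells was 0.35 ± 0.20, with a 95% interval from -0.06 to 0.76 and an edgeR adjusted p of 0.155. The highest β library after doxycycline held 2.31 CPM and the median one 0.889, close to the control median of 0.853. Gpx8 (chr13:113042759-113046386, minus strand) had no count in 25 of 48 libraries and at most 18 counts. It lies within Cdc20b on the other strand, and Cdc20b is listed at 0 in all 48 libraries. With no filter it was the ninth gene called between control cell types (log2 fold change -2.36, edgeR adjusted p = 0.0448).

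Among the intracellular glutathione peroxidases, Gpx2 alone passed the threshold as higher in β cells after doxycycline. Its gene (ENSMUSG00000042808.8) lies on chr12:76792333-76795554, minus strand, wholly inside Fntb on the plus strand. Control β libraries held 9.60 to 20.4 CPM (median 12.7) and doxycycline β libraries 15.9 to 50.4 CPM (median 21.0). Both doxycycline libraries were above both controls at each of the 6 times, and 6 of the 12 were above the highest control of any time. The log2 fold change was 0.85 ± 0.16 (edgeR adjusted p = 0.000168), with 0.93 in the earlier and 0.82 in the later run alone. Control α libraries held 6.87 to 13.9 CPM and doxycycline α libraries 9.73 to 20.8 CPM. That α effect was 0.40 ± 0.13 (edgeR adjusted p = 0.281). In the earlier run alone it was 0.62 with an edgeR adjusted p of 0.0156. The β effect was larger by 0.43 ± 0.21, which did not pass (edgeR adjusted p = 0.136). Gpx2 was higher in β than in α cells in control mice (0.41 ± 0.13, edgeR adjusted p = 0.00872) and in doxycycline mice (0.88 ± 0.15, edgeR adjusted p = 2.60e-05). Fntb, a farnesyltransferase subunit, was present at a mean of 36.7 CPM against 16.3 for Gpx2. The share of Gpx2 counts that came from Fntb was not tested.

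Gpx1 and Gpx4 varied little. Gpx1 (chr9:108338903-108340343, plus strand) held 41.5 to 58.5 CPM in control α and 48.3 to 85.8 CPM in control β libraries, 0.33 ± 0.08 higher in β cells on the log2 scale (edgeR adjusted p = 0.000663). In doxycycline mice this was 0.62 ± 0.10 (edgeR adjusted p = 7.05e-06). Within β cells the doxycycline effect of 0.20 ± 0.09 did not pass (edgeR adjusted p = 0.0642), with a 95% interval from 0.02 to 0.37. It passed when any of 5 libraries was left out (ZT16 replicate 2, ZT20 replicate 2 or ZT8 replicate 1 of the controls, or ZT12 replicate 1 or ZT20 replicate 2 of doxycycline). Gpx4 (chr10:80047166-80056439, plus strand) was the one gene of the group that fell in β cells. Control β libraries held 34.5 to 59.9 CPM (median 41.1) and doxycycline β libraries 25.5 to 41.0 CPM (median 33.8), with 7 of 12 below the lowest control. The log2 fold change was -0.34 ± 0.08 (edgeR adjusted p = 0.00255). The later run alone gave -0.32 with an edgeR adjusted p of 0.108. A term for the macrophage markers gave -0.27 with an edgeR adjusted p of 0.172. In α cells Gpx4 stayed at a median of 35.1 CPM in control and 34.8 CPM in doxycycline libraries. The β effect differed from the α effect by -0.33 ± 0.11 (edgeR adjusted p = 0.0282), with an adjusted p of up to 0.0648 when any of 8 libraries was left out. These were ZT8 replicate 1 of control α cells, ZT4 replicate 1, ZT8 replicate 2 and ZT16 replicate 1 of doxycycline α cells, ZT4 replicate 2 and ZT20 replicate 2 of control β cells, and ZT4 replicate 2 and ZT8 replicate 1 of doxycycline β cells. A pseudogene copy, Gpx4-ps2, drew 42 to 276 counts per library, and how many of these came from Gpx4 is not known.

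The cytosolic peroxiredoxins Prdx1 and Prdx2 were among the most abundant of the group in CPM. Prdx1 (chr4:116685544-116700822, plus strand) held 91.8 to 142 CPM in control α and 86.9 to 148 CPM in control β libraries. The difference of β from α cells was -0.13 ± 0.08, with a 95% interval from -0.29 to 0.03 (edgeR adjusted p = 0.15). Without ZT20 replicate 2 of the control β cells it was -0.16 and passed (edgeR adjusted p = 0.0477). After doxycycline β libraries held 109 to 166 CPM, and Prdx1 rose by 0.23 ± 0.08 (edgeR adjusted p = 0.0156). In neither run alone did that rise pass, with 0.22 in the earlier (edgeR adjusted p = 0.0656) and 0.26 in the later (edgeR adjusted p = 0.0883). Prdx2 (chr8:84969587-84974834, plus strand) held 129 to 188 CPM in control α and 73.9 to 120 CPM in control β libraries, with no overlap and a log2 fold change of -0.79 ± 0.07 (edgeR adjusted p = 1.67e-09). In doxycycline mice it was lower in β cells by a like amount (-0.61 ± 0.06, edgeR adjusted p = 3.12e-09). Doxycycline changed it in β cells by 0.10 ± 0.07, with a 95% interval from -0.04 to 0.23 (edgeR adjusted p = 0.239). Prdx2 overlaps Rnaseh2a by 181 bases and Junb by 351 bases, both on the minus strand.

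Txnip, the thioredoxin-interacting protein, had the widest relative spread of the 9 tested genes among control β libraries. The gene (ENSMUSG00000038393.14) lies on chr3:96557957-96561883, plus strand. Control α libraries held 190 to 263 CPM (median 220), a coefficient of variation of 10.8%. Control β libraries held 155 to 816 CPM (median 324), a coefficient of variation of 52.2%. The 2 libraries of one time could lie far apart. At ZT12 they held 801 and 262 CPM, and at ZT20 248 and 816 CPM. The groups overlapped, with 0.78 ± 0.21 higher log2 levels in β cells (edgeR adjusted p = 0.00198). In doxycycline mice β libraries held 693 to 2376 CPM (median 1786), and 11 of 12 lay above the highest control. The exception was ZT8 replicate 2 at 693 CPM, while the other library of that time held 2376 CPM. The mean rose 3.99-fold, from 408 ± 213 to 1626 ± 525 CPM, and both doxycycline libraries exceeded both controls at each of the 6 times. The fitted change was 2.04 ± 0.25 (edgeR adjusted p = 1.88e-06), with 2.09 in the earlier run alone and 2.13 in the later run alone. In α cells doxycycline libraries held 156 to 524 CPM (median 283), with 10 of 12 above the highest control and 1, at ZT4, below the lowest. That effect was 0.38 ± 0.12, with a 95% interval from 0.13 to 0.62, and did not pass over all genes (edgeR adjusted p = 0.281). The β effect was larger by 1.65 ± 0.28 (edgeR adjusted p = 3.91e-05). In doxycycline mice β cells exceeded α cells by 2.47 ± 0.19 (edgeR adjusted p = 2.26e-10), with no overlap.

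The Txnip promoter is shown because it carries the element through which sugar-sensing factors of the Mlx family are known to act. The 250 bases before the gene's start, chr3:96557707-96557956 on the plus strand of GRCm38.p6 (RefSeq), read 5′ to 3′ with the element in capitals.
Txnip: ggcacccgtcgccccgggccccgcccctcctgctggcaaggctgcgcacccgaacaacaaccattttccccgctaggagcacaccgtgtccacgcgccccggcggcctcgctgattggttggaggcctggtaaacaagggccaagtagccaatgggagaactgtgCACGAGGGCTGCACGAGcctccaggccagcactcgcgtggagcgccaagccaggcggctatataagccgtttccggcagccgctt

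The motif searched, on both strands, was CACGNG followed by 5 bases of any kind and CNCGNG, a pair of E-box-like sites, and it lay 85 to 69 bases before the start. Of 32851 RefSeq promoter windows of 250 bases, 0.28% held it. None of the other 9 genes did in the windows searched. Among the 10 Txnip relatives and sugar-sensing regulators, all with a window, Pklr (pyruvate kinase of liver) held it. The E-box CACGTG was found in Prdx4 among the 10 genes (6.02% of all windows), and the antioxidant response element core TGACNNNGC in Prdx1 (10.2%). Such matches are descriptions of letters, not of binding.

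The relatives of Txnip and the sugar-sensing regulators were compared in β cells. Arrdc4, the arrestin-domain relative of Txnip that also restrains glucose uptake, rose from 16.3 ± 4.02 to 68.1 ± 28.1 CPM (2.03 ± 0.17, edgeR adjusted p = 2.35e-08). The change of Txnip was 2.04 ± 0.25, but in control mice Arrdc4 was lower in β than in α cells (-1.01 ± 0.12, edgeR adjusted p = 1.25e-07). Mlxipl, which encodes the sugar-sensing factor ChREBP, fell from 162 ± 45.0 to 102 ± 37.7 CPM (-0.69 ± 0.13, edgeR adjusted p = 0.000169). Tkfc, a kinase of fructose metabolism, rose by 0.53 ± 0.06 (edgeR adjusted p = 5.72e-07). Of the 10 genes in this list 4 rose and 1 fell, where 23.8% of all genes rose and 23.1% fell. Their median log2 fold change was 0.02 against -0.01 over all genes. In α cells none of the list passed, where 0.127% of all genes did.

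**Figure D3:**
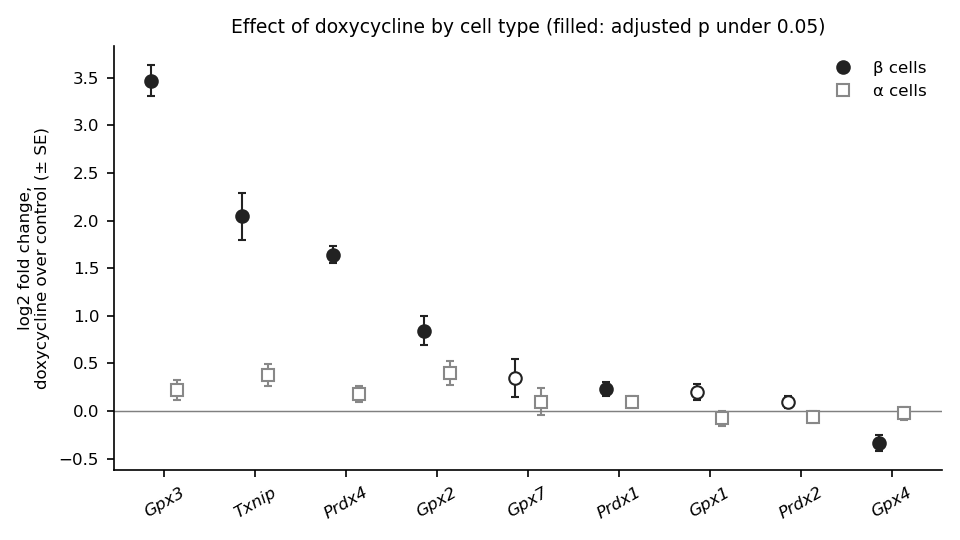
The points give the fitted log2 fold change of doxycycline over control (± SE, 12 libraries against 12) in β cells (circles) and α cells (squares) for the 9 genes that passed the filter. Filled points have an adjusted p under 0.05. Gpx3, Txnip and Prdx4 stand at 3.47, 2.04 and 1.64 in β cells, and no α point is filled.

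The macrophage and dendritic cell markers moved with these β-cell changes. Their median sum was 195 CPM in control and 813 CPM in doxycycline β libraries, against 75.0 and 88.5 CPM in α libraries. None of the 15 was at 0 throughout. With the mean log2 level of these markers as a term in the β-cell fit, Gpx3 was at 3.74, Txnip at 2.73, Prdx4 at 1.67 and Gpx2 at 1.27, each with an edgeR adjusted p of at most 0.000409. These markers rose with doxycycline themselves, so that fit cannot separate them from the treatment. Over all genes 3808 were called with the term and 7122 without it. Stellate cell and fibroblast markers had a median sum of 9.47 CPM in control and 29.2 CPM in doxycycline β libraries, with 4 of 8 risen. Delta, PP and epsilon cell markers had a median sum of 684 CPM in control and 1115 CPM in doxycycline β libraries, with 6 of 7 risen. In α libraries that median sum was 31725 CPM in control and 42319 CPM in doxycycline mice. Ductal markers had medians of 206 and 286 CPM in β libraries, with 2 of 6 risen. Among all genes 23.8% rose in β cells. The part of these cell types in the results was not tested.

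Acinar markers were uneven among the libraries of both cell types. In α libraries their sum was 9.75 to 1014 CPM in control mice and 13.7 to 7666 CPM after doxycycline. It was over 500 CPM in 2 of 12 control and 4 of 12 doxycycline α libraries. In β libraries the sum was 3.64 to 278 CPM in control mice (median 47.4). After doxycycline 9 of 12 β libraries held 12.1 to 24.1 CPM, and ZT8 replicate 2, ZT0 replicate 1 and ZT16 replicate 2 stood apart at 5346, 1190 and 594 CPM. Of the 14 markers 1 rose in β cells, where 23.8% of all genes did, and Prss1 was at 0 in every β library. The first 2 of those libraries were also the lowest of their group for Gpx3, at 716 and 470 CPM, and for Txnip, at 693 and 1085 CPM. Without the libraries whose sum was over 500 CPM, a limit chosen after seeing the data, the same 6 genes passed in β cells by edgeR, with Gpx3 at 3.67, Txnip at 2.15, Prdx4 at 1.65, Gpx2 at 0.94, Prdx1 at 0.26 and Gpx4 at -0.40.

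Other lists of redox genes in β cells give the surroundings of these changes, where 23.8% of all genes rose and 23.1% fell. The secreted superoxide dismutase Sod3 rose from 0.517 to 5.57 CPM (3.54 ± 0.32, edgeR adjusted p = 7.09e-08), next to a fall of the mitochondrial Sod2 (-0.37 ± 0.07, edgeR adjusted p = 0.00015) and a rise of Ccs, the copper chaperone of Sod1 (0.22 ± 0.06, edgeR adjusted p = 0.00589). In that list of 10 other peroxidases and dismutases, 8 of them tested, 4 rose and 1 fell. Glutathione synthesis and reduction had 5 of 15 higher and 3 lower. Slc7a11, the cystine importer, rose by 1.37 ± 0.35 (edgeR adjusted p = 0.00325), and Gclm, a subunit of the enzyme that starts glutathione synthesis, fell (-0.28 ± 0.07, edgeR adjusted p = 0.00403). Of 16 glutathione S-transferases, 13 of them tested, 3 rose and 4 fell, among them Gstm1 (-1.10 ± 0.14, edgeR adjusted p = 2.80e-06) and Gstt1 (-0.94 ± 0.13, edgeR adjusted p = 5.80e-06).

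In the thioredoxin system 3 of 10 rose and 2 fell, where 23.8% of all genes rose and 23.1% fell. Txn1, the thioredoxin that Txnip binds, rose from 35.2 ± 5.13 to 52.3 ± 10.9 CPM (0.56 ± 0.07, edgeR adjusted p = 2.74e-06). Nxn, a thioredoxin relative, rose by 0.59 ± 0.09 (edgeR adjusted p = 2.41e-05), and Txnrd3, a thioredoxin reductase, fell (-0.66 ± 0.15, edgeR adjusted p = 0.00148). The NRF2 pathway and NADPH supply had 3 of 13 higher and 4 lower. Its target Nqo1, a quinone reductase, fell from 5.75 ± 3.04 to 2.29 ± 1.28 CPM (-1.40 ± 0.19, edgeR adjusted p = 7.45e-06).

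Genes of oxidative folding in the endoplasmic reticulum, where Prdx4 works, rose more often than they fell. Of the 11 genes 8 rose and none fell, where 23.8% of all genes rose and 23.1% fell. Their median log2 fold change was 0.32 against -0.01 over all genes. Qsox1, a sulfhydryl oxidase, rose from 153 ± 25.1 to 266 ± 36.1 CPM (0.81 ± 0.07, edgeR adjusted p = 3.39e-08). The disulfide isomerases P4hb (0.73 ± 0.08, edgeR adjusted p = 3.09e-07) and Pdia6 (0.77 ± 0.10, edgeR adjusted p = 3.85e-06) rose as well. Between cell types all 11 passed as higher in β cells in doxycycline mice, where 35.6% of all genes did, and 7 of 11 in control mice, where 34.2% did and the other 4 had log2 differences of 0.01 to 0.17. Ero1lb, an oxidase typical of β cells, led in control mice (4.91 ± 0.08, edgeR adjusted p = 2.63e-21). Prdx4 was lower in β cells in both. Selenoprotein synthesis and other selenoproteins had 6 of 15 higher and 4 lower. Sepsecs, which makes selenocysteine on its tRNA, fell (-0.63 ± 0.06, edgeR adjusted p = 6.73e-08), as did Selenow (-0.74 ± 0.10, edgeR adjusted p = 7.24e-06), while the methionine sulfoxide reductase Msrb1 rose (0.54 ± 0.08, edgeR adjusted p = 1.94e-05). In α cells no gene of these lists passed, where 0.127% of all genes did.

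**Figure D4:**
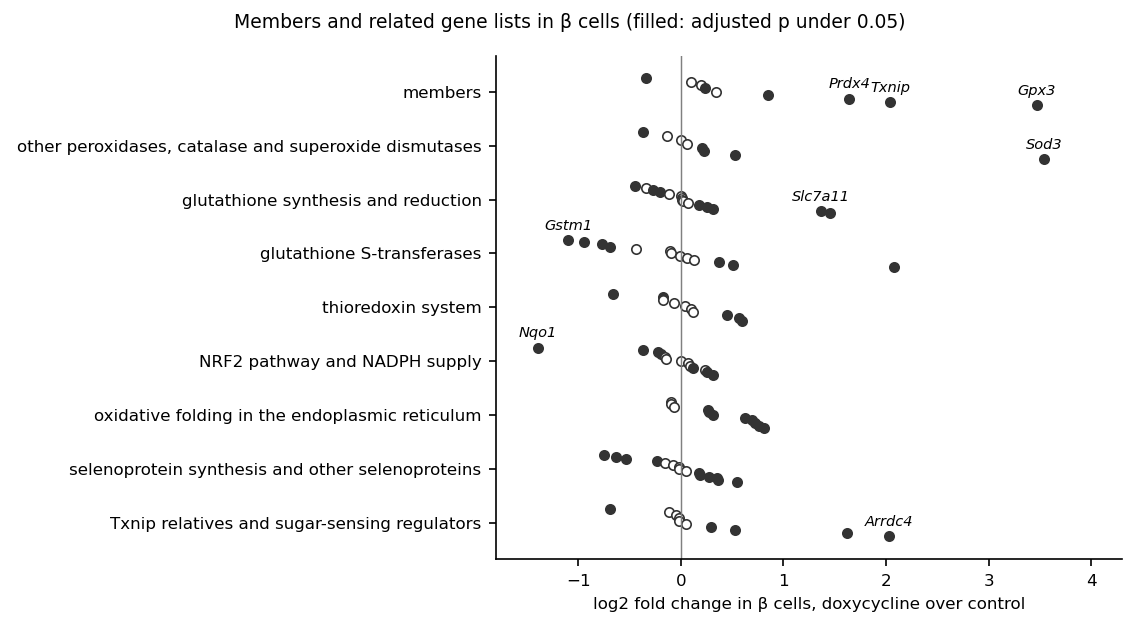
Each point is 1 gene's log2 fold change in β cells (doxycycline over control), by list, filled where the adjusted p is under 0.05. Named points are among the 3 with the lowest p of their list and changed by more than 2-fold. Gpx3 at 3.47 and Sod3 at 3.54 stand farthest to the right, and the folding list has no filled point below 0.

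Among these lists the control cell types differed in enzymes that share substrates with the peroxidases. Catalase (Cat) was higher in β cells (4.70 ± 0.50 against 1.63 ± 0.87 CPM, 1.62 ± 0.20, edgeR adjusted p = 2.63e-07), as was the lipid peroxidase Prdx6 (0.82 ± 0.06, edgeR adjusted p = 2.48e-10). Sod1, the cytosolic superoxide dismutase, was lower (-0.67 ± 0.06, edgeR adjusted p = 3.81e-09). Of the NRF2 and NADPH list, Hmox1 and Nqo1 were higher in β cells, by 2.83 ± 0.16 and 2.25 ± 0.21 (edgeR adjusted p = 9.64e-13 and 3.46e-09). Me1, which ranked between them by p, was lower (-0.84 ± 0.07, edgeR adjusted p = 9.52e-10).

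The time course asks whether the genes follow the day. No gene in the whole table had a doxycycline effect in β cells that differed between times (0 of 15188 by edgeR, 394 at an unadjusted p under 0.05, 13 by DESeq2), and none of the 9 was among those 394. For Gpx3 the lowest doxycycline library was ZT0 replicate 1 at 470 CPM and the highest ZT4 replicate 2 at 1869 CPM. In a 24 h cosine fit none of the 9 genes was rhythmic in control β cells (2.17% of all genes), in control α cells (4.49%) or in α cells of doxycycline mice (2.82%). Of the unadjusted p-values, none was under 0.05 in control β cells (20.6% of all genes) or control α cells (21.6%), and 2 of 9, those of Gpx1 and Gpx4, were in doxycycline α cells (19.9%). In β cells of doxycycline mice the unadjusted p was under 0.05 for Gpx1, Gpx2, Prdx1 and Prdx4, where 31.8% of all genes had this. After adjustment 11.6% of all genes were called there. Of the 9, Gpx2 alone was called, a share near that of all genes. The amplitude of Gpx2 was 0.61 ± 0.14 (log2, mean to peak) with the peak near ZT 1.93 ± 0.88 and an edgeR adjusted p of 0.0427. Its 2 libraries held 19.8 and 50.4 CPM at ZT0, 39.3 and 25.9 at ZT4, 17.8 and 16.4 at ZT12 and 19.8 and 15.9 at ZT16, so the early times were higher, with a wide spread at ZT0. The call held without ZT0 replicate 1, ZT0 replicate 2 or ZT4 replicate 2 and was lost without any other of the 12 libraries (adjusted p up to 0.0994), without a term for the run (0.14) and with the replicate block (0.115). The difference of its rhythm between control and doxycycline β cells did not pass (edgeR adjusted p = 0.989), and no gene of the table did. The fitted peak of Prdx4 lay between ZT 6.09 and ZT 8.36 in all 4 combinations of cell type and treatment, with amplitudes of 0.17 to 0.29 and edgeR adjusted p of 0.0964 to 0.399.

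**Figure D5:**
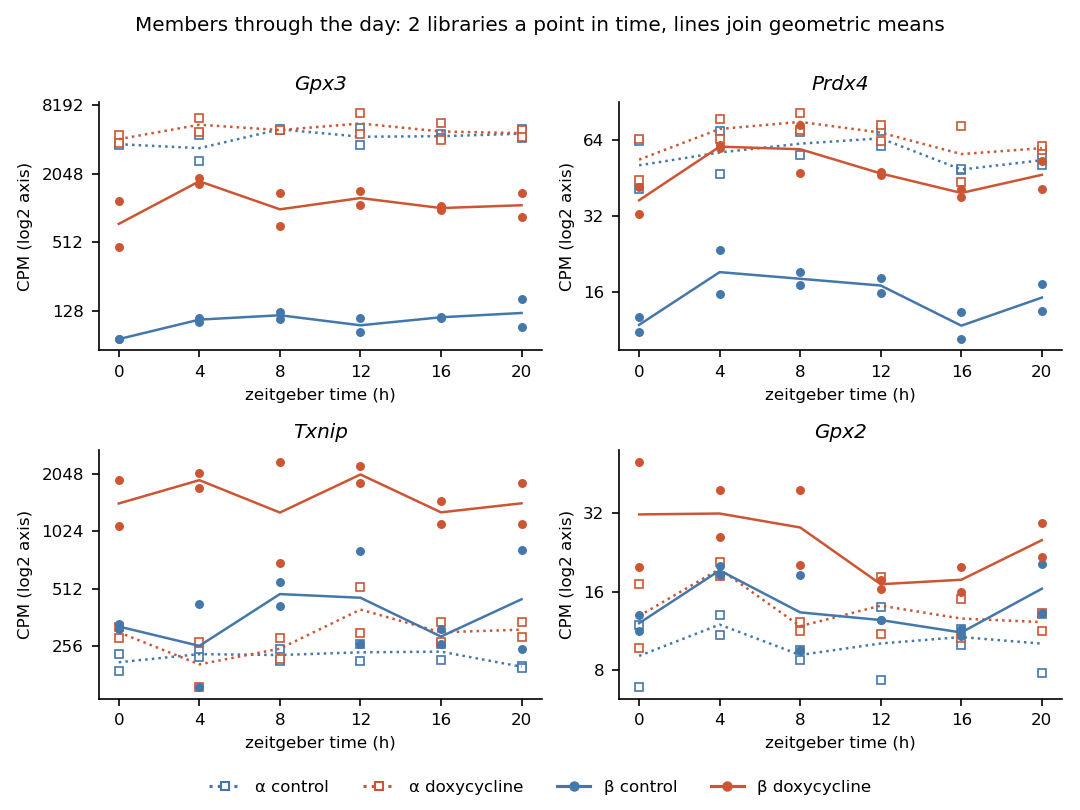
The panels plot CPM (log2 axis) against zeitgeber time for Gpx3, Prdx4, Txnip and Gpx2, with 2 libraries per time and lines through their geometric means. In Gpx3 and Prdx4 the filled red circles (β cells, doxycycline) lie above all filled blue ones (β cells, control) at every time. In Txnip 1 red circle, at ZT8, falls below the highest blue one.

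Genes with the pattern most like Gpx3 and Txnip were sought by Pearson's r of mean log2 CPM over the 24 groups, among 9061 genes with a mean of at least 10 CPM. This likeness is a description, since the groups share cell type and treatment. For Gpx3 they were Ttr (r = 0.986), the sorting receptor Sorcs2 (0.981) and Agpat4, an enzyme of phospholipid synthesis (0.978). Ttr went from 434 to 1786 CPM in β cells with doxycycline and stood at 7419 and 7504 CPM in α cells. Sorcs2 went from 5.76 to 49.5 CPM in β cells and stood at 151 and 141 CPM in α cells. For Txnip they were Lipa, a lysosomal lipase (0.963), Ngly1, which removes glycans from proteins (0.958), and Copz2, a coatomer subunit (0.952). Lipa went from 8.39 to 19.5 CPM in β cells and stood at 7.05 and 7.69 CPM in α cells.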

How the data were processed

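RNA was sequenced from sorted α and β cells, in 48 libraries of 24 groups of 2. Per the submitters' processing notes, the tools were bcl2fastq for demultiplexing and STAR as aligner, with GRCm38 as the build. The counting program is not given in the sources used here. The authors deposited an estimated count per gene, unscaled, in 1 table for each of 2 sequencing runs, which the date codes in the titles tell apart. All 48 columns matched a sample. The deposited RPKM tables were not used.

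Counts were rounded to whole numbers and tested with edgeR 4.0.16 (R 4.3.3), by the quasi-likelihood F test with TMM scaling and filterByExpr (minimum count 10, minimum total 15). A prior count of 2 was used for the log2 CPM of the macrophage marker term, while the fits kept the default of edgeR. Fits had terms for time and run, and rhythms were tested as a cosine and sine of 24 h with a term for run. P-values were adjusted by Benjamini-Hochberg over all genes that passed the filter (13280 to 16207), with a threshold of 0.05. Simulated counts were used to check the tests of doxycycline in β cells and of its difference between cell types. They also covered its difference between times and rhythm in control β cells, and no other test. CPM for all 48 libraries share 1 TMM scaling. Of the whole-number counts up to 20 in the deposited tables, 99.7 to 100% were even in each library, so low counts step by 2, and halved counts were 1 alternative. The others were RLE size factors, no filter, DESeq2 1.42.0, a replicate block, no run term, each run alone, a macrophage marker term, each library left out and, added after seeing the data, the libraries with over 500 CPM of acinar markers left out.

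Between α and β cells of doxycycline mice, libraries of the same number deviated together at every time (correlations of replicate differences 0.176 to 0.482). The numbers may thus mark pairs there, though from ZT4 to ZT20 they also mark the run. The fits whose values are given had no term for pairs. With the replicate block as an alternative, none of those calls changed.

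The 10 genes and all lists were chosen with earlier results of these data known. Some α-cell markers are not reported here. From each list at most the 3 genes with the lowest p were named per comparison. Sequences are from GENCODE vM21 and RefSeq. All 10 genes matched GENCODE vM21 in chromosome and strand, and Gpx8 alone differed in its start and end. The RefSeq windows of some genes, such as Gpx3 and Prdx4, lie inside the gene span given here.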

Additional observations from a re-analysis of the deposited data

Results flagged for a closer look

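For 4 genes the effect of doxycycline differed between β and α cells by the test of that difference in edgeR. Gpx3 rose by 3.24 more on the log2 scale in β cells, Txnip by 1.65 more and Prdx4 by 1.45 more, and the difference for Gpx4 was -0.33. Among all genes 25.5% differed in this way. The first 3 passed in each run alone and without any single library. Gpx4 passed in the earlier run alone and not in the later, where its value was -0.24 with an adjusted p of 0.461 by edgeR.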

How the results depend on the processing

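Over 3681 values of single genes under all alternatives, 3607 kept direction and side of the threshold, 26 lost the threshold, 9 gained it and 39 changed sign, none of the last a value that had passed. Values for rhythm, for rhythm differences and for the difference between times have no sign, so their direction could not change. Fits with a single library left out share most of their data with the main fit. The rises of Gpx3, Txnip, Prdx4 and Gpx2 in β cells passed under all alternatives. The counts of the 9 genes called kept within 1.5 times in both cell type comparisons (7 to 9 in control, 7 in doxycycline mice), in β cells with doxycycline (4 to 7) and for the difference between cell types (3 to 4).

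With the earlier run alone, 1 of the 9 was called in α cells (Gpx2), the doxycycline calls over all genes were 4638 in β cells, 132 in α cells and 2139 for their difference, and the sign turned for Prdx1 between cell types of doxycycline mice (-0.080) and in α cells for Gpx1 (0.034), Gpx4 (0.072) and Prdx2 (0.020). With the later run alone those calls were 3747, 0 and 1243. These fits hold fewer libraries. With the macrophage term they were 3808 in β and 0 in α cells, where Gpx4 turned to 0.014. Without the libraries high in acinar markers, 4 genes in all were called in α cells, where Gpx4 turned to 0.016, and Prdx1 between cell types of doxycycline mice turned to -0.023. In α cells the 19 calls over all genes became 125 by DESeq2, 56 without a filter, 12 without a run term and 7 with the replicate block. DESeq2 called 13 genes for the difference between times, 85 and 52 for that between runs in β and α cells (33 and 39 without a filter), 1317, 3014, 1518 and 1178 for rhythm in control β, doxycycline β, control α and doxycycline α cells, and 15 and 104 for rhythm differences between β groups and between control cell types (3 without a filter). Rhythm calls without a run term were 328 in doxycycline β, 344 in control α and 166 in doxycycline α cells, and in doxycycline β cells 831 without a filter. Of the 9 genes, rhythm in doxycycline β cells was called for 2 by DESeq2 and 0 without a filter or without a run term. The cause of these shifts was not tested.

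The replicate block gave 0 of the 9 for rhythm in doxycycline β cells, 688 rhythm calls over all genes there and 1 for the rhythm difference between control cell types, and it changed no other call of the 9. Between control and doxycycline libraries the correlations in β cells were -0.387 at ZT0 and 0.016 to 0.305 at the other times. In α cells they were -0.481 at ZT0 and 0.071 to 0.307 at the other times. From ZT4 to ZT20 replicate number and run coincide, so whether the numbers mark pairs there was not settled. Between α and β cells of control mice the correlations were 0.234 to 0.395 at 5 of 6 times and 0.040 at ZT20. The numbers may pair these libraries too, and the fits whose values are given had no term for pairs there either. The paired analysis of the difference between runs was not possible because run and replicate number coincide.

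Leaving out single libraries gave 0 to 1 of the 9 genes for rhythm in doxycycline β cells. Over all genes it gave 9 to 35 calls in α cells with doxycycline, 0 to 22 and 6 to 31 for the difference between runs in β and α cells, 20 to 893, 112 to 2317, 179 to 1141 and 41 to 560 for rhythm in control β, doxycycline β, control α and doxycycline α cells, and 0 to 1 and 0 to 58 for the rhythm differences. The signs that turned were those of Prdx1 between cell types of doxycycline mice (-0.047 to 0.075), Gpx4 in α cells (-0.060 to 0.019), and, for the difference between runs, in β cells Gpx2 (-0.38 to 0.032), Gpx3 (-0.29 to 0.0080), Gpx4 (-0.063 to 0.11), Prdx1 (-0.024 to 0.12), Prdx2 (-0.13 to 0.050) and Txnip (-0.25 to 0.31), and in α cells Gpx7 (-0.25 to 0.00164). Depth limits Gpx7 and Gpx8, at most 142 and 18 counts, or 71 and 9 when halved.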
